A study of Mus musculus with 2 samples.

Results

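Clca1-high mucous cells are cells of the mouse cervix epithelium whose RNA is rich in transcripts of secreted mucus proteins and, above all, of Clca1, a calcium-activated chloride channel regulator that goblet cells secrete into mucus. They were chosen by raw counts of unique molecular identifiers (UMIs), the tags that mark single captured RNA molecules. A barcode, the tag of 1 droplet, was a member when it had at least 200 genes, at most 20% of its UMIs from mitochondrial genes, a sum of Muc5b, Tff1 and Agr2 of at least 10 UMIs, at least 5 Clca1 UMIs and none of C1qa, C1qb or C1qc. The rule found 771 members among 13981 barcodes that passed the first 2 limits. Of these, 761 were among 9221 barcodes of the progesterone library, a share of 8.25% [7.70 to 8.83], and 10 were among 4760 barcodes of the control library, a share of 0.210% [0.101 to 0.386]. The shares rest on the genes of the rule and are given as a description. Brackets hold 95% intervals throughout, exact Clopper-Pearson for shares, exact Poisson for levels and exact conditional binomial for ratios, and they cover counting error only.

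Both libraries came from cervices of ovariectomised C57BL6/129 females aged 7 to 8 weeks at surgery, which removes the ovarian source of estradiol and progesterone, followed by 2 weeks of recovery. Control mice were left without treatment over the 15 days of the experiment. Progesterone mice were injected under the skin with estradiol (E2) in corn oil, 100 µg a day for 2 days, after which each mouse carried a progesterone pellet of 25 mg, built to last 21 days at about 1 mg a day. Cells of 9 mice were pooled into each library, so there was 1 library per group, no replicate and no test between or within groups, and the hormones, the injections and the pellet cannot be told apart. The study concerns olfactomedin 4 (Olfm4) as a label of luminal precursor cells and the secretory cells that come from them.

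The cervical canal is lined by a columnar luminal epithelium with mucous cells, next to a stratified squamous epithelium. Mucous cells fold, glycosylate and package gel-forming mucins such as Muc5b and Muc5ac together with trefoil peptides (Tff1) and the mucus protein Fcgbp. They rely on Agr2, a disulfide isomerase of the endoplasmic reticulum (ER), and on transcription factors such as Spdef. Cervical mucus carries antimicrobial proteins and transported antibodies, and its amount and texture change with estrogen and progesterone.

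The promoters of Ltf and Pigr, which stood among the genes with the highest ratios in these cells, are shown as the 250 bases before the RefSeq transcription start on GRCm38.p6. Ltf encodes lactoferrin and its upstream window is chr9:111019042-111019291 on the plus strand. Pigr encodes the receptor that carries polymeric antibodies across epithelium, and its window is chr1:130826434-130826683 on the plus strand. Capitals mark matches, on either strand, to 4 short motifs: the E-box CACGTG, the nuclear receptor half-site AGGTCA, the steroid receptor half-site TGTTCT and the forkhead core TGTTTA.
Ltf: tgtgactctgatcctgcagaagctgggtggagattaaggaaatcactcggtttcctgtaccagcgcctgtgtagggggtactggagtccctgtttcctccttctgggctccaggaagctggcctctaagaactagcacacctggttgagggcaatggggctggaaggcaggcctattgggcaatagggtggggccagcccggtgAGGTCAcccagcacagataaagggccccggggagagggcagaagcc
Pigr: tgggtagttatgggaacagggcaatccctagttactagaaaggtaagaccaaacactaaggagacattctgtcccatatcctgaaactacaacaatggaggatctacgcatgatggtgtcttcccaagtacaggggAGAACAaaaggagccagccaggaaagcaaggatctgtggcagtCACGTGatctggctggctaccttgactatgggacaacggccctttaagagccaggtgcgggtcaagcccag
In the Ltf window AGGTCA lay 46 to 41 bases before the start. The Pigr window held CACGTG at 71 to 66 bases and AGAACA, the reverse complement of TGTTCT, at 114 to 109 bases before the start. Among 32851 such windows of 27025 genes, CACGTG was found in 6.02%, AGGTCA in 14.0%, TGTTCT in 16.1% and TGTTTA in 12%. The window of Gp2 held none of the 4. Each match is a description of letters in a window. Clca1 had no entry in the promoter table.

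The progesterone members were compared with 721 mucous cells of the same library that had the same mucous sum of at least 10 UMIs, no C1q UMI and at most 1 Clca1 UMI, called Clca1-low here. The rule sets no C1q limit for the comparison cells. It was added here so that both classes were filtered alike. Without it there were 779 Clca1-low cells. Of 9286 genes then counted, 429 (4.62%) were higher and 184 (1.98%) lower by the limits used below. The 2 classes contributed 3796195 and 4289915 UMIs. Median depth was 4700 UMIs per member (516 to 19687) and 5922 per Clca1-low cell, and the median mitochondrial share was 8.10% and 6.85%. Another 151 progesterone cells with 2 to 4 Clca1 UMIs lay between the classes. The 2 libraries shared 19 barcodes, none of which was a member. Levels are summed UMIs per 1000000 UMIs of the class (CPM), on which genes are compared between classes and not with each other.

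Luminal and epithelial genes were present in nearly all members, as in Clca1-low cells, and were also seen in many squamous cells. At least 3 UMIs of the luminal keratins Krt8, Krt18 and Krt19 were found in 736 members (96.7%), 684 Clca1-low cells (94.9%) and 2188 squamous cells (53.7%), at median depths of 4700, 5922 and 5452 UMIs. A UMI of the epithelial adhesion gene Epcam was found in 713 members (93.7%), 684 Clca1-low cells (94.9%) and 3053 squamous cells (74.99%). Basal keratins were present too: 163 members (21.4%) had at least 5 UMIs of Krt5 and Krt14, and so did 321 Clca1-low cells (44.5%). The 6 basal squamous markers summed to 1874 CPM in members, 2539 CPM in Clca1-low cells and 14609 CPM in 4071 squamous cells of the same library, taken as barcodes with at least 20 UMIs of Krt5 and Krt14 and fewer than 10 mucous UMIs. Barcodes were ranked by the doublet score of Scrublet, and the top 801 of all passing barcodes (8.69%) were marked, a number fixed beforehand by an expected doublet rate. The marked barcodes included 93 members (12.2%) and 91 Clca1-low cells (12.6%). The part that shared droplets play in the results was not tested beyond the alternatives given with them.

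Clca1 itself (chr3:145003817-145032776, minus strand) ranged from 5 to 471 UMIs per progesterone member, with a median of 36, and members held 80.7% of the library's 53917 Clca1 UMIs. Its level was 11463 CPM in members, 34.3 CPM in Clca1-low cells and 52.8 CPM in squamous cells. After each cell was thinned to 2000 UMIs, Clca1 was seen in 98.5% of 683 members, 6.38% of Clca1-low cells and 5.59% of squamous cells, whose median depth was 5452 UMIs. The Clca1-low share was held low by the rule, and the squamous share is given as the background of the library. At the threshold, 39 members had exactly 5 and 25 exactly 6 Clca1 UMIs, while 30 and 45 mucous cells just outside had 4 and 3. Gp2 was at 416 and 393 CPM in cells with 5 and 6 Clca1 UMIs, and at 374 and 59.4 CPM in those with 4 and 3. Other genes varied in how they changed across the limit. From 3 to 6 Clca1 UMIs, Pigr was at 148, 361, 648 and 607 CPM, and Spdef at 376, 328, 284 and 270 CPM with overlapping intervals. Agr2 was at 4017, 3940, 2379 and 3450 CPM. Its level was thus lower with 5 Clca1 UMIs [2139 to 2638] than with 4 [3631 to 4268], and higher again with 6 [3074 to 3858]. Another 170 barcodes had 5 or more Clca1 UMIs but fewer than 10 mucous UMIs and were left out, as were 61 that carried C1q UMIs, which mark macrophages.

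**Figure D1:**
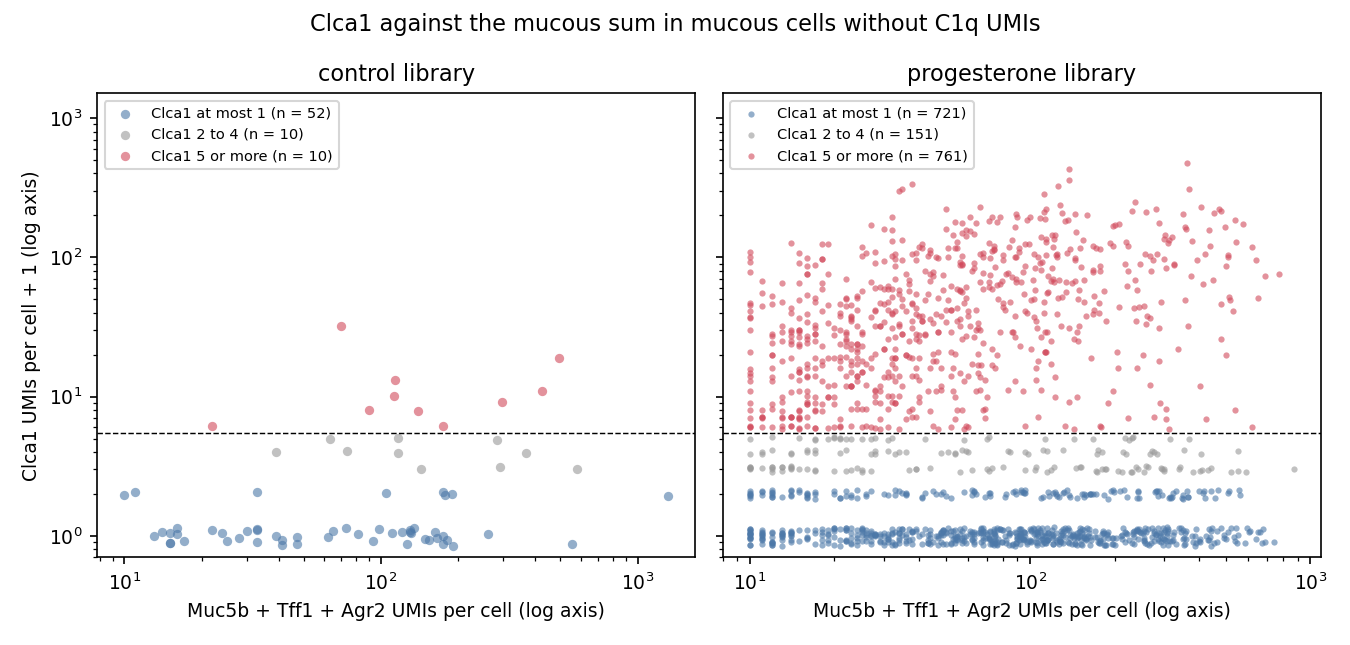
Clca1 UMIs per cell plus 1 against the sum of Muc5b, Tff1 and Agr2 UMIs, both on log axes, for mucous cells without C1q UMIs in the control library (left) and the progesterone library (right); each point is 1 cell, points are spread slightly in height, and the dashed line marks the limit of 5 Clca1 UMIs. The 761 progesterone members reach 471 Clca1 UMIs, while the 10 control members stop at 31.

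The other markers given for the class split. Gp2 (chr7:119442537-119459285, minus strand), a surface glycoprotein that binds bacteria, ranged from 0 to 60 UMIs per member with a median of 1. It was at 596 CPM in members and 68.1 CPM in Clca1-low cells, 8.76-fold [7.75 to 9.93] higher. Olfm4, a secreted glycoprotein used as a stem and progenitor marker in several epithelia, ranged from 0 to 138 UMIs with a median of 7 and was 2.998-fold [2.89 to 3.11] higher, at 2587 against 863 CPM. Cxcl15, a chemokine of mucosal and glandular epithelium, was at 534 against 245 CPM, 2.18-fold [2.02 to 2.35] higher. The members thus had more of these markers than their Clca1-low neighbours, yet Gp2 was seen in 396 members (52.0%) and not in the others. Thinned to 2000 UMIs, Gp2 was found in 39.5% of members, 6.69% of Clca1-low cells and 0.349% of squamous cells.

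The 3 genes of the mucous sum differed in direction, although each cell of both classes had passed the same limit on their sum. Tff1 was at 8834 CPM in members and 6825 CPM in Clca1-low cells, a ratio of 1.29 [1.27 to 1.31]. Muc5b was at 6886 and 9631 CPM, a ratio of 0.715 [0.704 to 0.726]. Agr2 was 2.28-fold [2.23 to 2.34] lower in members, at 2654 against 6064 CPM. These values describe how the rule's own genes were divided and carry no call.

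Among 9207 genes with at least 50 UMIs in both classes together, the rule's genes left out, 438 (4.76%) were at least 2-fold higher in members and 168 (1.82%) at least 2-fold lower. The median log2 ratio of all of them was 0.07. A gene is called higher or lower below only where it passed this 2-fold limit, and the calls describe these 2 sets of cells from 1 library. Aqp5, C3, Cxcl17, Scgb3a1, Slpi, Ano1, Cftr, Foxa2, Xbp1, Galnt6, Lcn2, Mki67, Muc2, Lgr5 and Rack1 are named below in addition to the genes of the naming rule and were chosen after their values were seen. The genes with the most UMIs in members, mitochondrial and ribosomal protein genes left out, were Gm42418, a locus that overlaps ribosomal RNA, the nuclear RNA Malat1, Clca1, Wfdc2, Tff1, Muc5b, Tpt1, Eef1a1, Fau and Ltf.

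Defence genes of the mucosa were the list with the most calls. Of 13 counted genes, 10 were higher, none lower and 3 neither, with a median log2 ratio of 1.85. Ltf (chr9:111019271-111042767, plus strand), the iron-binding antimicrobial protein of secretions, ranged from 0 to 246 UMIs per member with a median of 3. Its level was 2740 CPM in members and 93.7 CPM in Clca1-low cells, 29.2-fold [26.5 to 32.4] higher. Pigr (chr1:130826684-130852249, plus strand) ranged from 0 to 24 UMIs with a median of 3 and was 11.3-fold [9.98 to 12.9] higher, at 710 against 62.7 CPM. Pigr was also the more even of the 2: thinned to 2000 UMIs it was seen in 68.4% of members, 7.45% of Clca1-low cells and 0.973% of squamous cells, and the 39 members richest in it held 19% of its UMIs, against 36.6% for Ltf.

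Complement and protease inhibitor genes of that list were higher as well. Factor B of the alternative complement pathway (Cfb) was 12.5-fold [9.48 to 16.9] higher, at 158 against 12.6 CPM, and C3, the complement protein on which that pathway acts, 4.11-fold [2.98 to 5.75]. Slpi, a secreted inhibitor of leukocyte proteases, was 8.10-fold [6.07 to 11.0] higher. Wfdc2, a related small secreted protein of genital tract epithelium, was found in every member, with 1 to 306 UMIs and a median of 35. It stood at 10314 CPM in members and 4214 CPM in Clca1-low cells, 2.45-fold [2.40 to 2.49] higher. Scgb3a1, an airway-type secretoglobin, was 3.62-fold [3.05 to 4.31] higher and the mucosal chemokine Cxcl17 3.09-fold [2.83 to 3.38]. Scgb3a1 came from few cells, being seen in 103 members (13.5%) with up to 119 UMIs in 1 of them. The 3 genes that passed neither limit were Lcn2 at 1.05, Cxcl5 at 0.953 and Wfdc18 at 0.650 of the Clca1-low level.

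Transmembrane mucins, which form the cell-surface layer under the gel, were higher in 3 of 5 counted genes, with a median log2 ratio of 3.55. Muc1 was found in 519 members (68.2%) and 44 Clca1-low cells (6.10%), and its level was 321 against 17.7 CPM, 18.1-fold [14.4 to 23.1] higher. Thinned to 2000 UMIs, the shares of cells with Muc1 were 46.4% of members, 3.19% of Clca1-low cells and 0.424% of squamous cells. Muc4 was 12-fold [7.31 to 21.1] higher, at 47.7 against 3.96 CPM. Muc16 had 170 UMIs in members and 0 in Clca1-low cells, which makes it at least 64.0-fold higher against a floor of 3 counts over that class. That floor is 0.699 CPM, and the list's median is the same with Muc16 at its bound. In the control library Muc16 did not separate the classes in this way. It had 5 UMIs in members and 47 in Clca1-low cells there, a ratio of 0.70 [0.217 to 1.75]. Muc20, at a ratio of 1.21, and Muc13, at 0.918, passed neither limit. The surface mucins therefore did not differ alike between the classes.

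Gel-forming mucus genes outside the rule were fewer. Of 4 counted, 3 were higher: Fcgbp, the abundant mucus protein that binds to mucins, at 1390 against 568 CPM (2.45-fold [2.33 to 2.57]), the mucin Muc5ac at 66.1 against 31.0 CPM (2.13-fold [1.72 to 2.65]) and the lectin Itln1 at 21.9 against 8.16 CPM (2.68-fold [1.79 to 4.10]). The trefoil peptide Tff2 was at 19 against 29.6 CPM, and 1 member held 84.7% of its UMIs. Muc5ac and Itln1 lost their calls among cells with at most 1 UMI of Krt5 and Krt14, at log2 ratios of 0.19 and 0.40, and at matched depth, at 0.59 and 0.88. Muc2, the gel-forming mucin of intestine, had 2 UMIs in members and 1 in Clca1-low cells. None of the other 6 Clca genes reached 50 UMIs, so Clca1 was the only member of its family that could be compared.

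Of 29 counted genes of protein folding and export in the ER none was higher, 2 were lower and 27 were neither, and their median log2 ratio was -0.58. The 29 summed to 6267 CPM in members and 9288 CPM in Clca1-low cells. Sdf2l1, an ER chaperone cofactor, was 2.11-fold [1.62 to 2.78] lower and the retrieval receptor Kdelr3 2.11-fold [1.55 to 2.90] lower, both at low levels. Both calls were lost between depths of 2878 and 6402 UMIs, the middle range of the members, at log2 ratios of -0.87 and -0.59. Neither gene was past 2-fold in all 16 other settings (12 for Sdf2l1 and 10 for Kdelr3). Of the 16, the 2 that change only the minimum of UMIs repeat the main ratio by construction. Among abundant genes, Ssr4, part of the translocon-associated complex, was at 663 against 1295 CPM, 1.95-fold [1.86 to 2.05] lower and just short of a call. Calr, a calcium-binding chaperone, was at 628 against 973 CPM and Hspa5, the main ER chaperone, at 489 against 648 CPM. Ern2, the stress sensor of mucous epithelia, had the highest ratio of the list, 1.44 [1.28 to 1.62].

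Transcription factors of secretory and Müllerian duct epithelium mostly did not differ by 2-fold, with 1 of 21 counted genes higher and 1 lower and a median log2 ratio of -0.05. Spdef, the goblet cell factor, was 2.06-fold [1.90 to 2.23] lower, at 225 against 463 CPM. Id1, an inhibitor of basic helix-loop-helix factors, was 3.52-fold [3.01 to 4.14] higher, at 169 against 48.0 CPM. Foxa2, at a ratio of 0.951, and Xbp1, at 0.963, were close to the Clca1-low level. The call of Spdef sat near the limit: it was past 2-fold in 13 of 16 other settings and in the same direction in all 16. These include the settings that change only the minimum of UMIs and so repeat the main ratio.

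Mucin O-glycosylation genes were called in both directions, 2 higher and 1 lower of 19, with a median log2 ratio of 0.35. The sialyltransferases St6galnac1 and St3gal4 were 2.32-fold [1.96 to 2.75] and 2.04-fold [1.64 to 2.54] higher, and both calls were lost among cells with at most 1 UMI of Krt5 and Krt14, at log2 ratios of 0.97 and 0.72. C1galt1, which builds the core 1 structure that carries most mucin sugars, was 2.38-fold [2.06 to 2.77] lower, at 65.6 against 156 CPM. Galnt6 and Galnt12, enzymes that add the first sugar, were at 0.805 and 0.639 of the Clca1-low level. The enzymes of this pathway thus had no common direction.

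Ion and water transport genes had 4 of 16 higher and 1 lower, with a median log2 ratio of 0.20. Carbonic anhydrase 2 (Car2) was 7.88-fold [5.54 to 11.5] higher, the water channel Aqp8 6.74-fold [5.28 to 8.69], the epithelial sodium channel subunit Scnn1b 5.84-fold [3.93 to 8.94] and the water channel Aqp5 2.22-fold [2.02 to 2.45]. Aqp3, a water and glycerol channel of basal squamous cells, was 2.57-fold [1.52 to 4.50] lower on 20 against 58 UMIs. The chloride pathway itself was near even: Cftr was at 41.6 and 42.9 CPM, Ano1 at 81.1 CPM in both classes, and the basolateral chloride loader Slc12a2 at 1388 and 1054 CPM, a ratio of 1.32 [1.26 to 1.37].

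Luminal keratins and junction genes were higher in 3 of 15, with a median log2 ratio of 0.67. Among them, the tight junction genes Cldn23 and Cldn8 were 3.62-fold and 3.18-fold higher on 48 and 45 UMIs. Krt8 at 1.65 and Krt19 at 1.69 stayed under the limit, and Krt18, the partner of Krt8, was at 0.920.

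Of 10 counted genes of stem and progenitor cells, 3 were higher and none lower, with a median log2 ratio of 0.34. They were Olfm4, Tspan8, a tetraspanin, at 439 against 133 CPM (3.29-fold [2.99 to 3.63]), and Prom1, the membrane protein known as CD133, at 121 against 39.9 CPM (3.03-fold [2.53 to 3.63]). Olfm4 was more widely seen than in Clca1-low cells. Thinned to 2000 UMIs it was found in 76.6% of members, 28.1% of Clca1-low cells and 1.82% of squamous cells. Lgr5, a stem cell marker of other glands, had 1 UMI in members and 0 in Clca1-low cells.

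None of the 6 counted steroid receptor genes passed a limit. The estrogen receptor gene Esr1 was at 207 against 174 CPM, a ratio of 1.19 [1.07 to 1.31]. The progesterone receptor gene Pgr was at 73.8 against 122 CPM, a ratio of 0.606 [0.522 to 0.702]. Of 6 counted steroid-responsive genes 3 were higher and 1 lower, with a median log2 ratio of 0.76. Besides Ltf these were the kinase Sgk1, 2.27-fold [2.04 to 2.53] higher, and the secreted protein Prap1, 66.7-fold [40.9 to 117] higher. The Prap1 value came from 1 member that held 903 of its 945 UMIs, and without that cell the ratio was 2.98. Fkbp5, a chaperone cofactor of steroid receptors, was 3.81-fold [1.88 to 8.49] lower on 10 against 43 UMIs.

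Lists of the cell state showed little. Of 10 counted proliferation genes, Cenpf was higher at 2.34, with 26.8% of its UMIs in 1 member and a ratio of 1.72 without that cell, and 9 were neither. The median log2 ratio of that list was 0.31. Mki67, a marker of cycling cells, was at 12.4 CPM in both classes. None of 12 early stress genes, which mark handling of dissociated cells, passed a limit, and their median log2 ratio was 0.09.

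By the rule for single genes, the 12 highest by the bound of the interval nearest 1, among genes with at least 100 UMIs and 50 CPM in members, were Prap1, Cpm, Ltf, Muc1, Rep15, Upk1a, St8sia6, Cfb, Padi2, Pigr, Camk2n1 and Gp2. Those not described above were Cpm, which encodes the membrane enzyme carboxypeptidase M, at 55.1 against 0.932 CPM (59.0-fold [22.7 to 219]), the Rab15 effector Rep15 at 96.4 against 5.59 CPM (17.2-fold), and the uroplakin Upk1a, a plaque protein of bladder lining, at 166 against 12.1 CPM (13.7-fold). St8sia6, a sialyltransferase, was 12.9-fold higher, the deiminase Padi2 12.1-fold and the kinase inhibitor Camk2n1 10.5-fold. Apart from Prap1, no single member held more than 4.37% of the UMIs of any of these 12 genes, the highest share being that of Rep15.

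The 12 lowest genes by the same measure were Rbp2, Eaf2, Timp3, Ntrk2, Dapl1, Fgfbp1, Nucb2, Fkbp11, Spink5, Krtdap, Fdps and Serpina9. Dapl1, an epithelial differentiation gene, was the most abundant, at 179 against 941 CPM (5.25-fold [4.84 to 5.71] lower). Eaf2, a transcription elongation factor partner, was 8.07-fold lower, and Rbp2, a cellular retinol-binding protein, 13.6-fold lower on 15 UMIs. Serpina9, a serine protease inhibitor, was at 85.9 against 301 CPM and Fdps, an enzyme of isoprenoid and cholesterol synthesis, at 66.1 against 234 CPM. Krtdap and Spink5, genes of squamous differentiation, were lower too, and 1 member held 46.3% of the Spink5 UMIs. Beside these stand the basal keratins, which more Clca1-low cells carried.

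**Figure D2:**
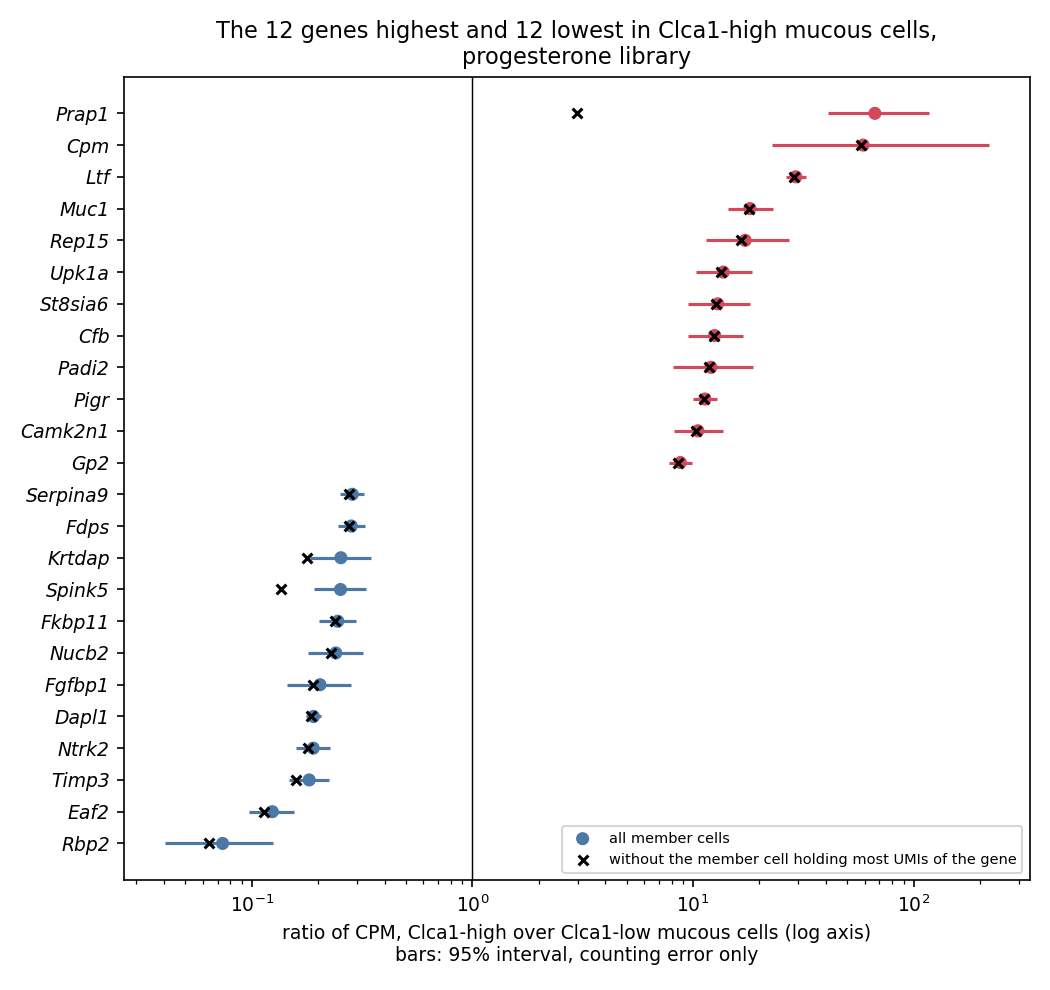
Ratio of CPM in Clca1-high over Clca1-low mucous cells of the progesterone library on a log axis, for the 12 genes highest (red) and the 12 lowest (blue); bars are 95% counting intervals and crosses leave out the member cell with most UMIs of that gene. Crosses sit on or near the dots for most genes, while Prap1 moves from 66.7 to 2.98 and Spink5 from 0.252 to 0.136.

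**Figure D3:**
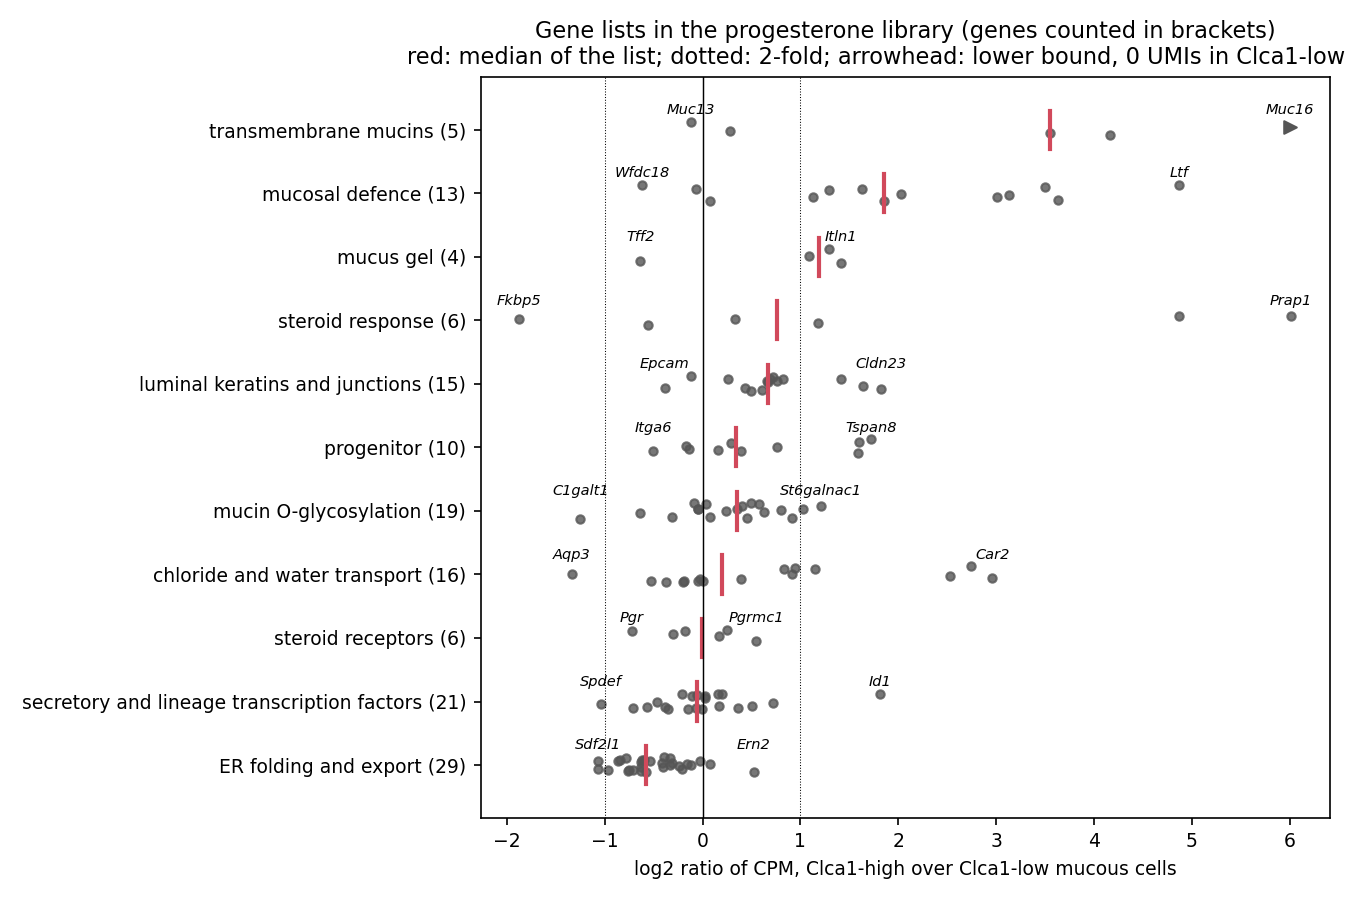
Log2 ratio of CPM in Clca1-high over Clca1-low mucous cells for the counted genes of 11 lists (numbers in brackets), with the list median as a red bar, dotted lines at 2-fold and an arrowhead for Muc16, which is a lower bound. Transmembrane mucins and mucosal defence lie to the right, at medians of 3.55 and 1.85, and ER folding and export lies to the left at -0.58.

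Keeping only cells with at most 1 UMI of Krt5 and Krt14 left 397 members and 169 Clca1-low cells. Of 5701 genes counted in this set, 215 (3.77%) were higher and 83 (1.46%) lower, against 4.76% and 1.82% of 9207 genes in all cells of the 2 classes. The log2 ratio of Ltf was then 4.38 instead of 4.87, that of Muc1 2.95 instead of 4.17, that of Pigr 2.38 instead of 3.50 and that of Gp2 1.98 instead of 3.13. Dapl1 was at -1.98 instead of -2.39 and Krtdap at -1.11 instead of -1.97, while Ntrk2 was at -2.93 instead of -2.39. Defence genes had 7 of 11 higher in this set, and ER folding genes kept a median of -0.53. When both classes were limited to depths between 2878 and 6402 UMIs, the middle range of the members, Ltf was at 4.66, Pigr at 2.94, Gp2 at 2.80 and Spdef at -1.23. In both sets these genes kept their direction and stayed past 2-fold. Cxcl15 and Sgk1 lost their calls among the cells low in basal keratins, at log2 ratios of 0.73 and 0.96, and Aqp3 was at -3.92 instead of -1.34. Basal keratins and depth thus moved with the sizes of several differences, and their part was not tested further.

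Levels did not change in parallel when mucous cells were grouped by Clca1 UMIs, from 574 cells with 0 to 296 cells with 50 or more. Ltf was at 86.5 CPM with 0 Clca1 UMIs, 696 with 5 to 9, 1067 with 10 to 19, 2099 with 20 to 49 and 4266 with 50 or more. Wfdc2 went from 4075 to 13614 CPM over the same classes and Fcgbp from 561 to 1743 CPM. Pigr and Muc1 had most of their difference between 2 to 4 and 5 to 9 Clca1 UMIs. Pigr was at 224 and 615 CPM in those 2 classes and at 678 CPM with 50 or more, and Muc1 at 63.8, 291 and 352 CPM. Gp2 was at 59.4 CPM with 3 Clca1 UMIs, 374 with 4 and 416 with 5, so part of its difference lay within the 2 to 4 class.

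Agr2 and Spdef were lower in the classes from 5 Clca1 UMIs upward. Agr2 was at 5566 CPM with 2 to 4 Clca1 UMIs, 2356 with 5 to 9 and 3017 with 50 or more, and Spdef at 401, 211 and 253 CPM. Tff1 had its lowest level in the middle, at 4311 CPM with 10 to 19 Clca1 UMIs, against 9916 with 2 to 4 and 12975 with 50 or more. Slc12a2 and Id1 were highest with 10 to 19 Clca1 UMIs, at 1713 and 256 CPM, and lower with 50 or more, at 1104 and 125 CPM. Median depth was 3604 UMIs with 5 to 9 Clca1 UMIs and 5495 with 50 or more, against 5925 with 0, so cells thinned to 2000 UMIs are plotted beside the full counts. Thinned, Slc12a2 was highest with 5 to 9 Clca1 UMIs, at 2022 CPM, while Agr2 and Spdef were again lower from 5 upward.

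**Figure D4:**
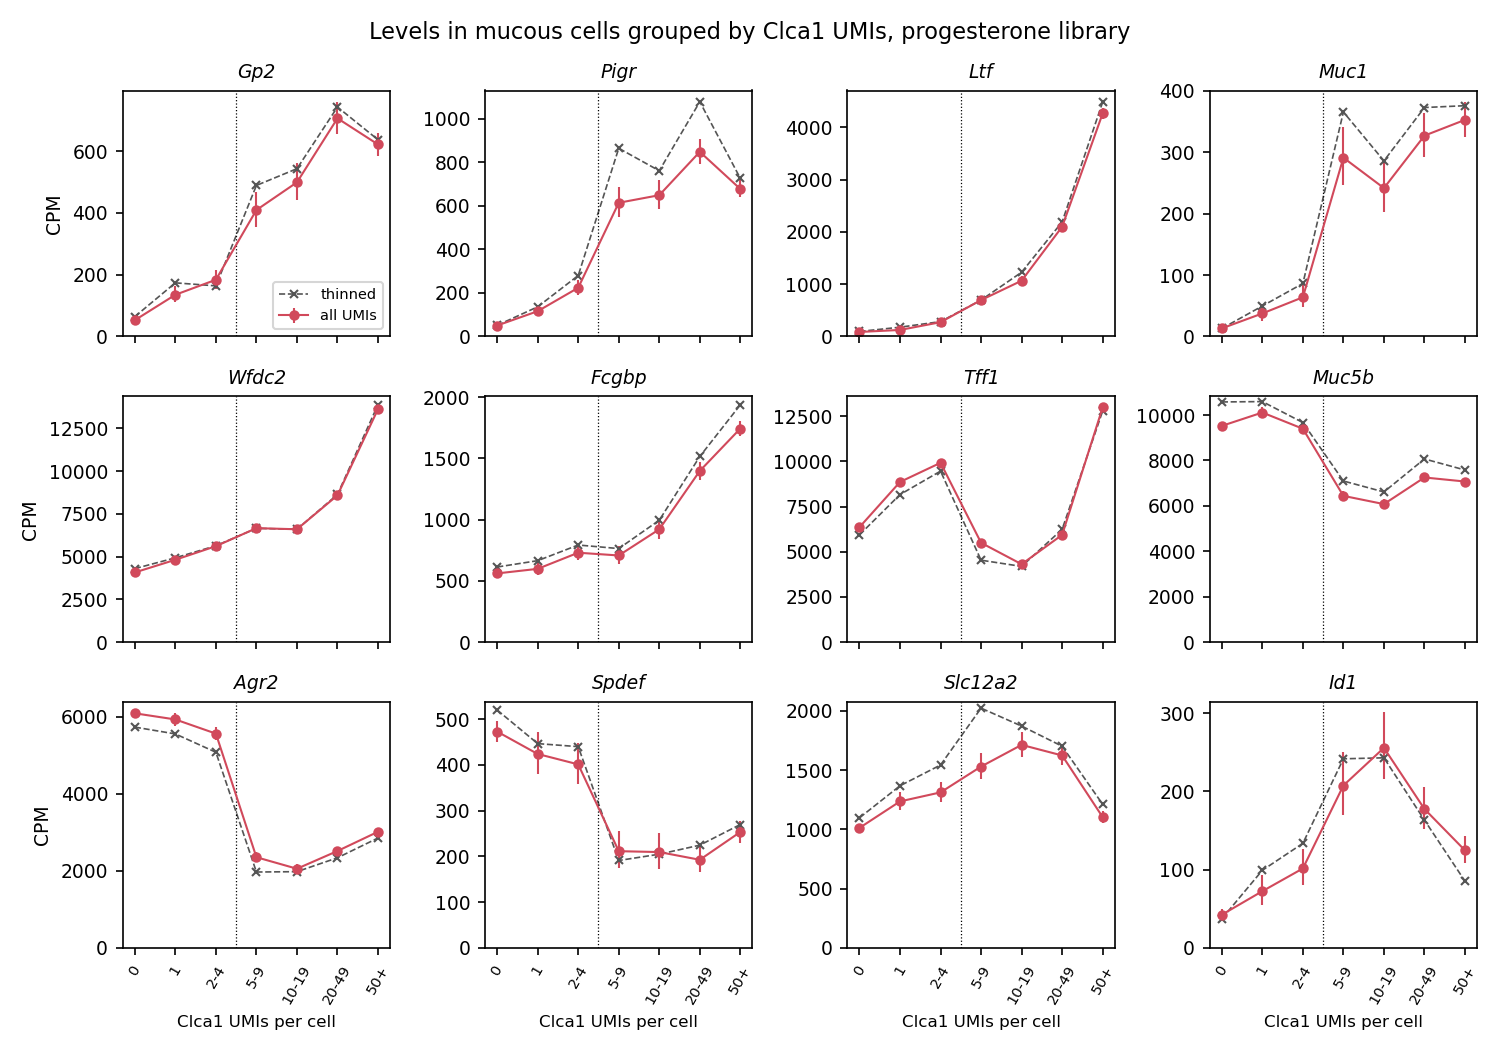
CPM of 12 genes (linear axes from 0) in mucous cells of the progesterone library grouped by Clca1 UMIs per cell; red points show all UMIs with 95% Poisson intervals, grey crosses cells thinned to 2000 UMIs, and the dotted line the limit of 5. Ltf, Wfdc2 and Fcgbp are highest at 50 or more, Pigr and Muc1 are higher at 5 to 9 than at 2 to 4, and Agr2 and Spdef are lower.

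Within the members, the genes most like Clca1 were ranked by Spearman's rho over 683 members thinned to 2000 UMIs, among 905 genes with at least 500 UMIs. They were Ltf (0.43), Fcgbp (0.42), Tff1 (0.42), Wfdc2 (0.40), Padi1 (0.38), Gng12 (0.36), Tgm2 (0.34) and Krt13 (0.32). At the other end were Eef1a1, a translation elongation factor, at -0.42 and the ribosome-associated Rack1 at -0.38. All cells come from 1 library and each was brought to the same total, so a cell with many UMIs of a few genes has fewer left for others, and these are descriptions without a test.

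Several pairs of genes rose together among the same members, and those given here are a selection. Tff1 went with Muc5b (rho 0.57) and with Wfdc18 (0.55), and Muc5b with Fcgbp (0.51). Ltf instead went with Krt13 (0.46), a keratin of suprabasal and luminal surface cells, while Muc5b and Krt13 were at -0.30 and Muc5b and Ltf at -0.04. Slc12a2 went with Pigr (0.33) and Olfm4 (0.27). Clca1 went with both Ltf (0.43) and Tff1 (0.42), and so did Wfdc2 (0.25 and 0.45), so the pairs did not part into separate groups. Clca1, Tff1 and Muc5b are genes of the rule. Muc5b was the leading gene of the mucous sum in 458 members, Tff1 in 267 and Agr2 in 36. Tff1-led members had 16320 CPM of Clca1 and 14231 CPM of Wfdc2, against 9019 and 8048 CPM in Muc5b-led members. Slc12a2 and Pigr were the reverse, at 877 and 551 CPM in Tff1-led and 1753 and 850 CPM in Muc5b-led members, and median depth was 5031 and 4257.5 UMIs.

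The 10 control members held 36405 UMIs. Their Clca1 ran from 5 to 31 UMIs with a median of 8.5, and their summed level was 3077 CPM [2533 to 3702], against 11463 CPM in progesterone members. Muc5b ranged from 0 to 145 UMIs with a median of 47.5, Tff1 from 0 to 220 with a median of 48, and Agr2 from 0 to 179 with a median of 34. Their levels of 16371, 20794 and 16042 CPM were all above those of progesterone members, by 2.38-fold, 2.35-fold and 6.04-fold. The few control members thus had less Clca1 and more of the 3 mucous genes per UMI than the progesterone members, on genes that the rule itself used.

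Of the other markers, Olfm4 was found in all 10 control members with 6 to 60 UMIs, at 6290 CPM against 2587 CPM in progesterone members. Ltf was also in all 10, with 6 to 121 UMIs, at 8131 against 2740 CPM. In the control library Ltf did not separate the classes as it did with progesterone, since 52 control Clca1-low cells had 7088 CPM. Gp2 had 4 UMIs in 2 control members, 110 CPM [29.9 to 281], and Pigr 1 UMI, 27.5 CPM [0.695 to 153], against 596 and 710 CPM in progesterone members. Slc12a2 had 0 UMIs in the control members, where 3 counts would be 82.4 CPM, and progesterone members were at least 16.8-fold higher. Wfdc2 was near even at 8845 and 10314 CPM.

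Genes lower in progesterone than in control members included the calcium-binding protein gene S100a6, at 832 against 10301 CPM, and Sprr1a, a small proline-rich gene of squamous surfaces, at 568 against 6290 CPM. The Ly6 family genes Psca and Slurp1 were at 39.5 and 10.0 CPM against 1181 CPM each. Both rested on 43 UMIs in control members, of which 1 cell held 23 for Psca and 1 cell 13 for Slurp1. Psca was also seen in 32 of 52 control Clca1-low cells, with 550 UMIs. S100a6, Sprr1a, Psca and Slurp1 were chosen after their values were seen. The 8 suprabasal squamous markers summed to 8048 CPM in control and 1961 CPM in progesterone members. In control members 5 of the 8 had 0 UMIs, and Krt13 and Krt6a held 235 and 55 of the 293 UMIs. The part of these markers was not tested. With 10 control cells, 1 library each and a treatment that combined estradiol with progesterone, no gene is called here, and no difference between the libraries was tested.

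**Figure D5:**
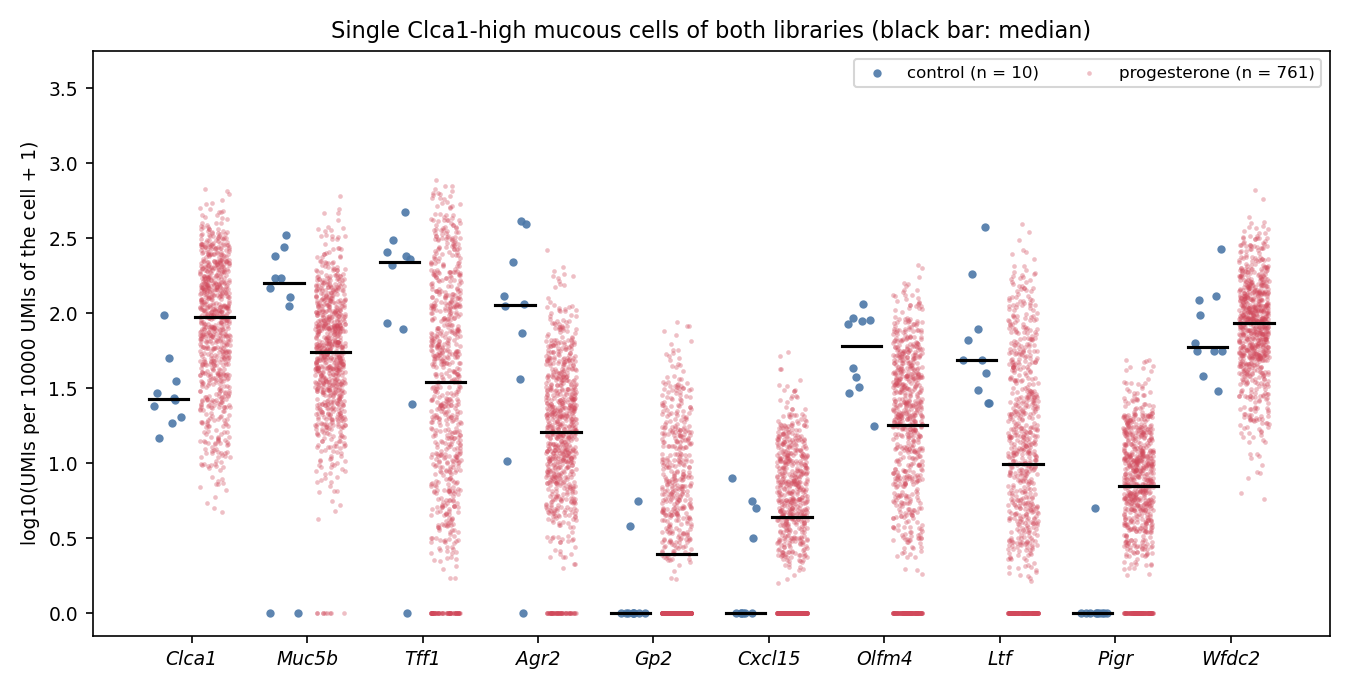
Log10 of UMIs per 10000 UMIs of the cell plus 1 for 10 genes in single Clca1-high mucous cells, 10 of the control library (blue) and 761 of the progesterone library (red), with black bars at the medians. Clca1 and Pigr are higher in progesterone members, Agr2 and Muc5b higher in control members, and Wfdc2 overlaps.

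Markers of several other cell types were low in progesterone members. Summed macrophage markers were at 30.03 CPM, where the C1q genes are 0 by the rule. Fibroblast markers were at 26.1 CPM, T and NK cell markers at 8.69 CPM with Cd3e, Cd2 and Nkg7 at 0, and blood endothelium at 3.95 CPM with Emcn at 0. A count of 0 in this class allows 0.790 CPM. Smooth muscle markers were at 85.1 CPM, 307 of their 323 UMIs being in 1 member. Neutrophil markers were at 219 CPM in members and 106 CPM in Clca1-low cells, and 24 members (3.15%) had 3 or more of their UMIs.

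Hemoglobin and other erythrocyte markers stood out at 4333 CPM in members, 1737 CPM in Clca1-low cells and 3790 CPM in squamous cells. Only 26 members (3.42%) had 3 or more such UMIs, and 1 had 4843. The 8 suprabasal squamous markers summed to 1961 CPM in members and 1328 CPM in Clca1-low cells. Krt13 alone was at 1699 CPM in members, a ratio of 1.91 to Clca1-low cells. Krtdap, of the same list, was at a ratio of 0.253, so the sum does not give a common direction of the list. A list of 4 uterine gland genes, Prap1, Calb1, Foxa2 and Cxcl15, summed to 892 CPM in members, 362 CPM in Clca1-low cells and 49.6 CPM in squamous cells, and 331 members (43.5%) and 209 Clca1-low cells (29.0%) had 3 or more of their UMIs. Cxcl15 is also among the markers given for the class, and 1 member held 903 UMIs of Prap1. Ciliated cell markers were at 15.5 CPM with Foxj1, Ccdc153 and Pifo at 0, and tuft cell markers at 104 CPM with Trpm5 at 0. In Clca1-low cells tuft cell markers were at 108 CPM with Dclk1, Trpm5 and Pou2f3 at 0, so the sum there was Avil alone. The part of these cell types in the values above was not tested.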

How the data were processed

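Single-cell RNA was measured with 10x 3' v3.1 libraries. Raw UMI counts per gene and barcode were deposited as filtered matrices, made with Cell Ranger 3.0.2 on mm10 per the submitters' processing notes. The gene annotation release is not given in the sources used here. The dissected cervix, freed of vaginal tissue, was kept with cold protease at 4 °C for 60 min and then strained (40 µm mesh), per the labels' protocols. The control library held 5368 barcodes and 21658684 UMIs, with a median of 3061.5 UMIs, and the progesterone library 10853, 44811069 and 3757.

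Members and gene lists were chosen with earlier results of these data known. Counts were summed per class and divided by its total. Named genes were the 7 markers, the 12 highest and 12 lowest by the interval bound nearest 1 (at least 100 UMIs and 50 CPM where higher), the 10 most abundant, the 3 largest and 2 smallest ratios of each list with any member of at least 500 CPM, and the 8 most like Clca1. No p-values were computed because each group is 1 library. Python 3.11.15, numpy 2.4.6, scipy 1.17.1 and Scrublet within scanpy 1.11.5 (expected doublets 0.8% per 1000 barcodes) were used. Barcodes marked as doublets were kept, and leaving them out is an alternative. One gene of the keratin and junction list is not reported here by name. The ratio script was tested on simulated data. Gene positions are from GENCODE M21 on GRCm38, which holds 31011 of the 31053 identifiers in the files.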

Additional observations from a re-analysis of the deposited data

Results flagged for a closer look

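For 9 named genes, the ratio of Clca1-high over Clca1-low mucous cells lay on opposite sides of 1 in the control and progesterone libraries, with counting intervals that left out 1 in both. Many other named genes had opposite ratios with an interval that held 1, such as Pigr, at 0.243 [0.00594 to 1.48] in control on 1 against 27 UMIs and 11.3 with progesterone. The difference between the libraries was not tested, and the control ratios rest on 10 against 52 cells. Agr2 was 2.67-fold [2.42 to 2.94] higher in control members and at a ratio of 0.438 with progesterone, and Muc5b was at 2.78 [2.52 to 3.06] and 0.715. Both belong to the sum that chose the cells. Among genes of the ER and of glycosylation, Ssr4 was at 1.62 in control and 0.512 with progesterone, Pdia3 at 1.47 and 0.688, and Galnt12 at 2.40 and 0.639. Fdps was at 1.90 and 0.283, Fgfbp1 at 1.94 and 0.204, and Krt18 at 1.22 and 0.920. Gm42418, the locus that overlaps ribosomal RNA, went the other way, at 0.645 [0.603 to 0.688] in control and 1.28 with progesterone.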

How the results depend on the processing

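No paired analysis was possible because each group is 1 library. Of 53 named genes outside the rule that were past 2-fold, 51 kept their direction in all 16 other settings and 39 stayed past 2-fold in all of them. For single genes, the 2 settings that change only the minimum of UMIs repeat the main ratio by construction, so they could not move a gene. One of these settings, leaving out the member with most UMIs of the gene, was chosen after seeing the data. Progesterone members numbered 497 with limits of 500 genes and 10% mitochondrial UMIs, 363 with a mucous sum of at least 50, 489 when the rule was applied to thinned cells and 397 with at most 1 UMI of Krt5 and Krt14. Control members numbered 4 with at least 10 Clca1 UMIs, 17 with at least 3, 5 by the rule on thinned cells and 6 with at most 1 basal keratin UMI. Genes higher numbered 271 of 6116 counted (4.43%) in cells thinned after the rule and 215 of 5701 (3.77%, 83 lower) with at most 1 basal keratin UMI. They numbered 2370 of 15812 (15.0%, 1618 lower) with no minimum of UMIs and 154 of 5000 (3.08%, 67 lower) with at least 200 UMIs. The main comparison counted 9207 genes, of which 4.76% were higher, so these numbers differ partly through the genes counted. The last 2 settings differ by construction in the genes counted. Prap1 reversed to log2 ratios of -4.28 by the rule on thinned cells and -0.014 between the depth quartiles, and Cenpf to -1.88 by the rule on thinned cells. For these reversals the cause was not tested. Depth limits genes under 50 UMIs, which have no call, and the 10 control members, in which 3 counts are 82.4 CPM.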

Other observations

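Of 18 genes of cholesterol synthesis, 10 were lower in progesterone members than in Clca1-low cells, beside 1.82% of all 9207 counted genes. These enzymes of the pathway from acetyl-CoA to cholesterol were taken as a list after Fdps and other members had been seen among the lower genes, so their count is a description. None of the 18 was higher and 8 were neither, with a median log2 ratio of -1.11 against 0.07 over all counted genes. They summed to 646 CPM in members and 1272 CPM in Clca1-low cells. Hsd17b7 was 4.07-fold [2.92 to 5.81] lower, Fdps 3.54-fold [3.08 to 4.08] and Cyp51 2.86-fold [2.38 to 3.45]. The late enzyme Ebp passed neither limit, at a ratio of 1.05 [0.944 to 1.17]. Among cells with at most 1 UMI of Krt5 and Krt14, 7 of 12 counted genes were lower, none was higher and the median was -1.10. In that set 1.46% of all counted genes were lower.

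Other abundant genes outside the lists, chosen after their values were seen, were higher. Clu, a secreted chaperone, was at 183 against 18.9 CPM, 9.68-fold [7.68 to 12.3]. Ramp2, a partner of the calcitonin receptor-like receptor, was 5.98-fold [4.95 to 7.26] higher, and Rdh10, which oxidises retinol, 5.29-fold [4.45 to 6.32]. Rbp2, the cellular retinol-binding protein among the lowest genes, thus differed in the other direction from Rdh10. Tgm2, a protein crosslinking enzyme, was 3.67-fold [3.34 to 4.03] higher, at 502 against 137 CPM.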
